A study of Mus musculus with 12 samples.

Results

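A list of 41 mouse interferon-stimulated genes was followed across thymic epithelial cells (TEC) with and without MHC class II. The genes were chosen by symbol, as well-known targets of interferon signalling, and all 41 of them were found among the 34547 genes measured. RNA was sequenced from 12 libraries, 3 each of WT cortical TEC (cTEC), Aβ0/0 cTEC, WT medullary TEC (mTEC) and Aβ0/0 mTEC. Aβ0/0 mice carry a disrupted *H2-Ab1*, the gene of the MHC class II β chain, in every cell of the body, so that the dendritic cells and the TEC of these mice are both without normal MHC class II. WT mice were C57BL/6 mice bought from a commercial breeder, while the Aβ0/0 mice were provided by another investigator. Each library came from TEC pooled from 5 to 10 mice that were 4 to 6 weeks old, and cells were sorted as EpCAM+CD45-Ly51+UEA1- for cTEC and EpCAM+CD45-Ly51-UEA1+ for mTEC. The SMART-Seq kit used for the libraries amplifies small amounts of RNA by PCR and does not keep the strand. The study lists more sorted mTEC for each pool of WT mice than for any pool of mice without MHC class II. In every pool it lists fewer cTEC than mTEC. Cell input thus differed with genotype and subset. Its part in the values below, including genes without counts in some libraries, was not tested.

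Interferons are secreted cytokines that cells release when they sense viral nucleic acid, and some epithelia also make them without infection. Type I and type III interferons bind different receptors, but both lead to a complex that contains STAT2 and IRF9 and binds the interferon-stimulated response element (ISRE) in the promoters of target genes. Interferon-γ acts through the gamma-activated sequence (GAS) and induces IRF1 and many guanylate binding proteins. In the thymus, mature mTEC are known to produce type I and type III interferon in the steady state, and interferon also acts on the dendritic cells, macrophages and thymocytes that surround TEC.

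Of the 41 genes, 32 had a promoter in the RefSeq table for build GRCm38.p6. In the 250 bases upstream of the start, the ISRE letters, GAAA followed after any 2 bases by another GAAA, or TTTC followed after any 2 bases by TTTC for the other strand, were present in 17 of these 32 genes (53.1%) against 936 of 27025 genes of the table (3.46%). The GAS letters TTCNNNGAA, which read the same on both strands, were present in 9 of the 32 genes (28.1%) against 2197 of all genes (8.13%). GAS and ISRE matches may overlap. Of the genes on which the comparisons turn, *Irf1*, *Irf7*, *Irf9*, *Ifit2*, *Sp100* and *Oasl1* had no ISRE match. *Iigp1*, *Oas2* and *Zbp1* had no promoter in the RefSeq table. The windows below hold ISRE matches of others of these genes, written 5′ to 3′ on the strand of the gene, with the matching bases in capitals. None of these windows lay in a gene of the GENCODE M21 annotation.
Isg15, chr4:156200871-156200900, minus strand: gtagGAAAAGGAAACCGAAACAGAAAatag
Stat2, chr10:128270266-128270295, plus strand: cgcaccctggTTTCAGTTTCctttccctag
Oas3, chr5:120777715-120777744, minus strand: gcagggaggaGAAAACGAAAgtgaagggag
Gbp7, chr3:142530273-142530302, plus strand: gtgtgtgcagTTTCAGTTTCagttctccat
Ifit1, chr19:34640775-34640804, plus strand: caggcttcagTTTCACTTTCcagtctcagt
Ifit3, chr19:34583363-34583392, plus strand: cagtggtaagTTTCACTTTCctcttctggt
Ifit3b, chr19:34607759-34607788, plus strand: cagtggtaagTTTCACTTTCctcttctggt

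In the GENCODE annotation of GRCm38, the 4 *Ifit* genes of the list lie on chromosome 19 between 34550694 and 34650009, the 4 *Gbp* genes on chromosome 3 between 142493978 and 142638008, and *Oas1a*, *Oas2* and *Oas3* on chromosome 5 between 120730333 and 120907521. The window of *Isg15* held 3 overlapping matches, and the windows of *Ifit3* and *Ifit3b* were the same in every base. The transcripts of this last pair were 97.8% identical over 1700 bases, and those of *Oas1a* and *Oas1g* were 97.6% identical over 1861 bases. Reads shared by such copies were divided between them by estimation, so that the split within each pair is uncertain. The same holds in part for *Mx1* and *Mx2*, which were 94.8% identical over 920 bases. *Igtp* and *Irgm2* occupy overlapping stretches of chromosome 11 on the same strand, and their counts could also be mixed. A match of letters is a description of the sequence, and no binding was measured.

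Estimated counts totalled between 21.7 M and 36.1 M per library. *H2-Ab1*, which checks the labels, was between 6630 and 11100 CPM, that is counts scaled by library size, in the 6 WT libraries and between 1950 and 3770 CPM in the 6 Aβ0/0 libraries. cTEC marker transcripts summed to between 3350 and 10900 TPM, the level corrected for transcript length, in cTEC and to between 227 and 758 TPM in mTEC, and mTEC markers to between 2500 and 5270 TPM in cTEC and between 18200 and 33700 TPM in mTEC. Transcripts typical of other cells were present in all fractions, and whether they came from such cells or from the TEC themselves was not tested. A list of 11 dendritic cell and macrophage genes summed to 680, 622 and 646 TPM in WT mTEC, to 754, 119 and 116 TPM in Aβ0/0 mTEC, to 357, 89.0 and 53.4 TPM in WT cTEC and to between 8.83 and 43.0 TPM in Aβ0/0 cTEC. *Lyz2* carried most of this sum, and the other 10 genes summed to 53.3, 36.5 and 40.5 TPM in WT mTEC, to 14.8, 14.4 and 8.64 TPM in Aβ0/0 mTEC, to 4.67, 2.64 and 21.9 TPM in WT cTEC and to 1.63, 4.61 and 0.512 TPM in Aβ0/0 cTEC. *Adgre1*, a macrophage marker, was at 11.2 to 21.8 CPM in WT mTEC and at 0 in Aβ0/0 mTEC, and *Clec9a*, a marker of conventional dendritic cells, was at 0 in 10 of the 12 libraries. A list of 5 granulocyte genes was at 1380 to 1960 TPM in WT mTEC and at 187 to 421 TPM in Aβ0/0 mTEC, thymocyte genes were at 250 to 776 TPM in cTEC and at 26 to 150 TPM in mTEC, and fibroblast genes were at 1640 to 2510 TPM in cTEC and at 111 to 257 TPM in mTEC. Such cells also express interferon-stimulated genes, and their part in the values below was not tested. In pooled bulk RNA, fewer cells of one type cannot be told apart from less RNA per cell, and the p values measure the spread between pools.

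All 41 interferon-stimulated genes were detected in every group. In TPM, which allows genes to be compared per length of transcript, *Ifitm3*, which encodes a membrane protein that blocks virus entry, stood far above the rest, with a mean of 10900 TPM and a range from 6100 to 18900 TPM over the 12 libraries. It was followed by *Isg15*, a ubiquitin-like modifier, with a mean of 619 TPM (370 to 1270), by *Bst2*, which tethers virus particles to the cell, with 505 TPM (360 to 818), by *Oasl2*, an oligoadenylate synthetase-like protein, with 436 TPM (321 to 677), and by *Xaf1*, a protein linked to cell death, with 349 TPM (247 to 506). The ranges of the last 4 overlapped with each other and with those of *Rtp4* and *Irf7*, next in the order, so that this order was not separated beyond the spread over libraries. It also differed between groups. In WT mTEC *Irf7*, with a mean of 322 TPM, and *Usp18*, with 305 TPM, lay above *Xaf1*, with 269 TPM. At the other end, *Oas3* and *Oas2*, which make the short adenylate chains that activate RNase L, had means of 9.24 and 10.1 TPM. Without *Ifitm3*, the remaining 40 genes summed to 6730, 7520 and 6180 TPM in WT cTEC, 6180, 4620 and 6090 TPM in Aβ0/0 cTEC, 4080, 4250 and 4650 TPM in WT mTEC and 5060, 4720 and 4800 TPM in Aβ0/0 mTEC. The WT mTEC libraries were the 3 lowest but for 1 Aβ0/0 cTEC library that lay between them, and each lay below each Aβ0/0 mTEC library.

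**Figure D1:**
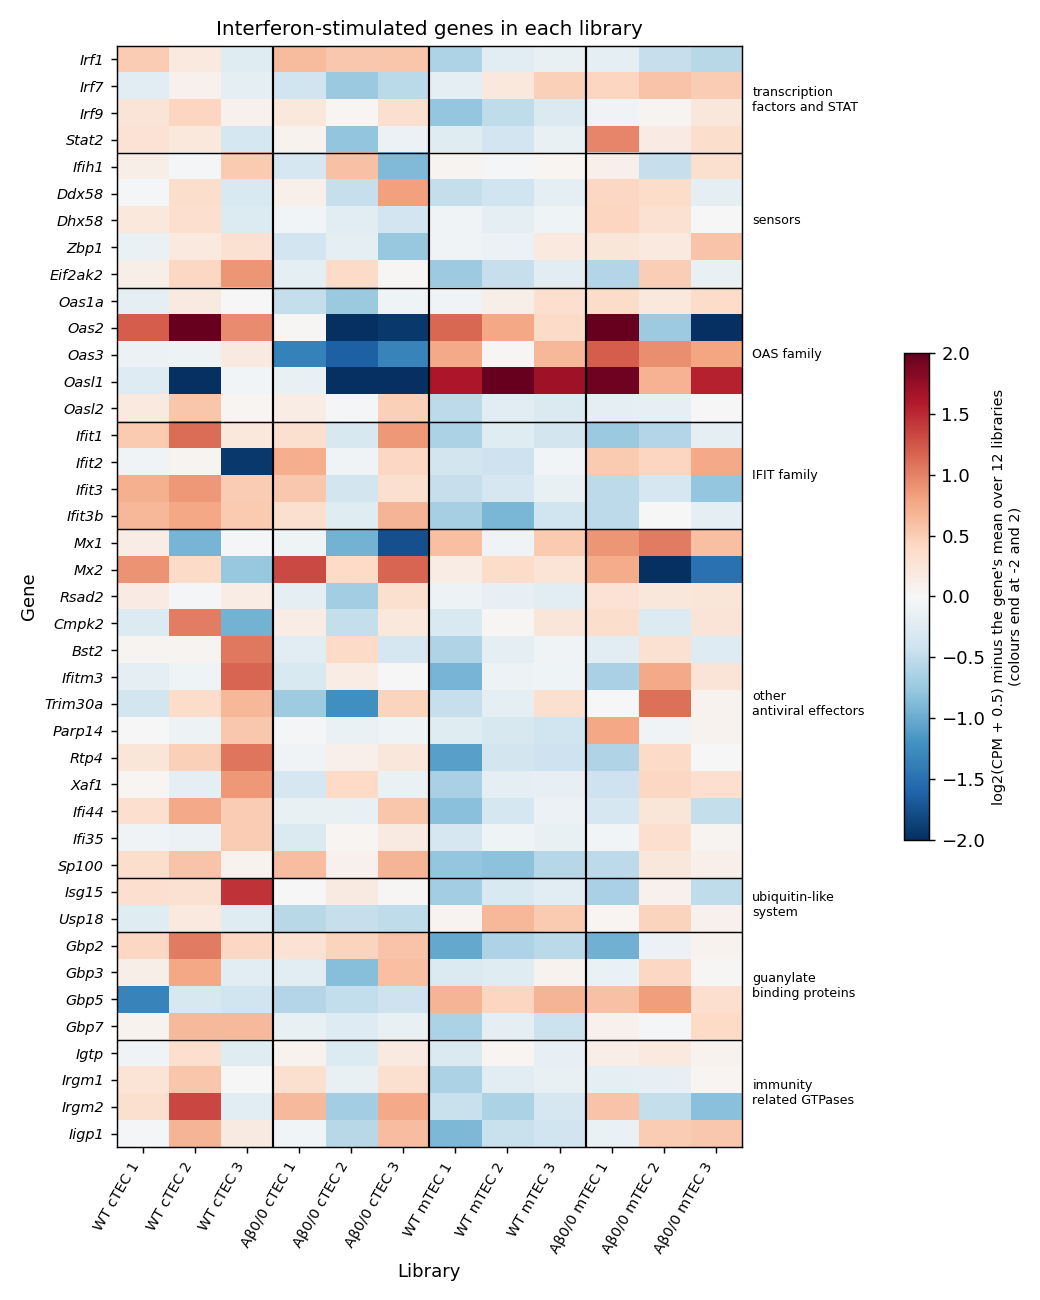
The 41 interferon-stimulated genes (vertical axis, by role) in the 12 libraries (horizontal axis), coloured by log2(CPM + 0.5) minus the mean of the gene over all libraries, with colours ending at -2 and 2. Most genes are blue in the 3 WT mTEC libraries and red in the WT cTEC libraries, whereas *Oas2*, *Oasl1* and *Mx2* differ most between libraries of one group.

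Loss of MHC class II in mTEC was the first comparison. None of the 41 genes passed an adjusted p of 0.05 (quasi-likelihood test of edgeR, Benjamini-Hochberg adjustment over 18636 genes), where 5.66% of all genes did. At an unadjusted p under 0.05 the test held 8 of the 41 genes, all lower in WT, against 15.3% of all genes, while DESeq2 called 4 of the 41 lower in WT (*Ifit2*, *Iigp1*, *Irf9* and *Rsad2*), as it did 2.62% of all genes, and limma on the rlog values called 0, against 3.21% of all genes. The estimates were below 0, that is lower in WT than in Aβ0/0 mTEC, for 32 of the 41 genes, where 49.9% of all genes were, and the median log2 fold change of WT over Aβ0/0 was -0.33, beside 0.00 over all genes tested. In 15 genes each WT mTEC library lay below each Aβ0/0 mTEC library and in 0 genes above, whereas 8.52% of all genes had WT entirely below and 18% entirely above. The count of estimates below 0 stayed between 32 and 35 when any 1 library was left out. Markers of TEC subsets also differed between the genotypes in mTEC. The cTEC markers summed to 610 to 758 TPM in WT and 227 to 375 TPM in Aβ0/0 mTEC, and the mTEC markers to 18200 to 23100 TPM and 23900 to 33700 TPM. *Ccl25* carried most of the first sum (means of 550 and 208 TPM) and *Ccl21a* most of the second (17400 and 27000 TPM). By gene, 5 of the 7 cTEC markers and 5 of the 9 mTEC markers had estimates above 0, that is higher in WT. *Aire*, which marks mature mTEC, was at 981, 520 and 440 CPM in WT and 185, 118 and 129 CPM in Aβ0/0 mTEC (2.17, adjusted p = 0.0352, edgeR). This call held in 1 of the 6 fits that left out a library. The part of these markers was not tested.

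Among the transcription factors, *Irf9*, the DNA-binding subunit of the complex formed after type I and type III interferon, was at 119, 143 and 166 CPM in WT mTEC and at 194, 211 and 239 CPM in Aβ0/0 mTEC. *Stat2*, its partner, was at 115, 104 and 123 CPM in WT, against 267, 153 and 173 CPM in Aβ0/0 mTEC. The groups did not overlap in either gene, and Aβ0/0 replicate 1 stood apart for *Stat2*. The log2 fold changes of WT over Aβ0/0 were -0.58 (standard error, SE, 0.19, adjusted p = 0.173, edgeR) and -0.79 (SE 0.25, adjusted p = 0.16, edgeR), and neither passed. *Irf7*, which amplifies the type I response, was at 336, 446 and 534 CPM in WT, against 517, 569 and 545 CPM in Aβ0/0 mTEC, where the groups overlapped. *Irf1*, the factor typical of interferon-γ, was at 174, 228 and 239 CPM in WT, against 236, 194 and 182 CPM in Aβ0/0 mTEC, with an estimate of 0.07.

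The gene with the smallest p in mTEC was *Iigp1*, a GTPase that attacks the vacuoles of intracellular parasites, with 193, 266 and 273 CPM in WT and 328, 514 and 525 CPM in Aβ0/0. All WT values lay below all Aβ0/0 values, and the log2 fold change was -0.90 (SE 0.24, adjusted p = 0.106, edgeR). *Ifit2*, which binds RNA and restrains translation, was at 21.3, 20.7 and 26.5 CPM in WT, against 39.9, 37.6 and 47.2 CPM in Aβ0/0, again without overlap, with a log2 fold change of -0.86 (SE 0.25, adjusted p = 0.13, edgeR). The other 3 genes of its family showed no such separation, since *Ifit1* was at 173, 227 and 209 CPM in WT and 160, 178 and 237 CPM in Aβ0/0, and the estimates of *Ifit1*, *Ifit3* and *Ifit3b* were 0.09, 0.23 and -0.42. *Sp100*, a nuclear body protein, was at 117, 113 and 135 CPM in WT, against 140, 234 and 215 CPM in Aβ0/0, and *Gbp7*, a guanylate binding protein, at 46.5, 63.7 and 53.7 CPM in WT and 77.0, 71.8 and 96.2 CPM in Aβ0/0. Neither pair of groups overlapped, and the log2 fold changes were -0.68 and -0.58, with adjusted p = 0.2 and 0.251 (edgeR).

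Without Aβ0/0 mTEC replicate 1, in which *Lyz2* was at 740 TPM against 104 and 107 TPM in the other Aβ0/0 mTEC libraries, 2 of the 41 genes passed in mTEC, namely *Iigp1* (log2 fold change -1.09, adjusted p = 0.0298, edgeR) and *Sp100* (-0.88, adjusted p = 0.0315, edgeR), both lower in WT, as were 1.57% of all genes in that fit. The estimate of *Stat2* came down to -0.52 without this library. By role, estimates were below 0 for 3 of 4 transcription factors, 4 of 5 sensors, 3 of 5 oligoadenylate synthetases, 2 of 4 genes of the IFIT family, 12 of 13 other antiviral effectors, 1 of 2 genes of the ubiquitin-like system, 3 of 4 guanylate binding proteins and all 4 immunity related GTPases. Estimates above 0 were found for *Mx2* (0.80), *Oasl1* (0.39), *Usp18* (0.24), *Ifit3* (0.23) and 5 further genes, none of which passed. *Mx2*, a GTPase against viruses, showed how far single libraries could decide such a value, since it was at 14, 16.5 and 15.3 CPM in WT mTEC and at 21.5, 0.697 and 4.16 CPM in Aβ0/0 mTEC.

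**Figure D2:**
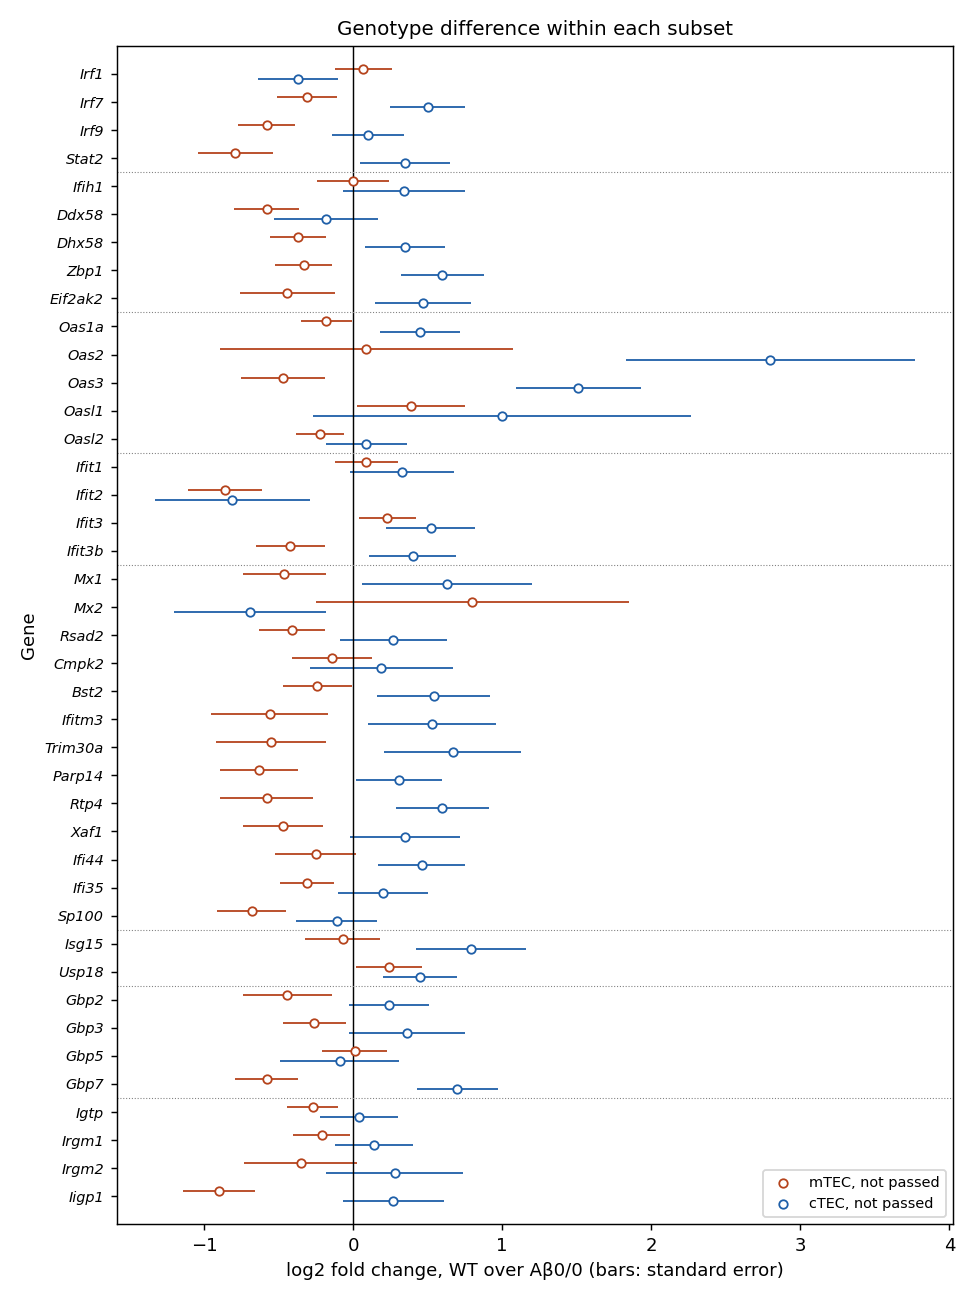
log2 fold change of WT over Aβ0/0 (horizontal axis, bars are standard errors) for each of the 41 genes (vertical axis), in mTEC and in cTEC. In mTEC 32 estimates lie left of 0 and in cTEC 35 lie right of 0, and no point is filled because no gene passed an adjusted p of 0.05.

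In cTEC most estimates lay on the other side of 0. Again 0 of the 41 genes passed (edgeR's quasi-likelihood test, adjusted over 15432 genes), where 0.0194% of all genes did, and 3 of the 41 had an unadjusted p under 0.05, against 2.16% of all genes. DESeq2 called 1 of the 41 higher in WT (0.51% of all genes) and limma on the rlog values 0 (0.0169% of all genes called). The estimates were above 0, that is higher in WT cTEC, for 35 of the 41 genes, where 55.2% of all genes were, with a median log2 fold change of 0.35 beside 0.06 over all genes tested. In 8 genes (*Irf7*, *Zbp1*, *Oas2*, *Oas3*, *Rtp4*, *Isg15*, *Usp18* and *Gbp7*) each WT library lay above each Aβ0/0 library, and in *Irf1* each lay below, while 4.12% of all genes lay entirely above and 3.58% entirely below. The count of estimates above 0 ranged from 28 to 36 when any 1 library was left out. The comparisons in cTEC and mTEC used different libraries, but these came from the same pools of mice. *Lyz2* was at 31.5 to 353 TPM in WT cTEC and at 7.19 to 38.3 TPM in Aβ0/0 cTEC, the other dendritic cell and macrophage genes overlapped in the values given above, and thymocyte genes were lower in WT (250 to 544 TPM, against 630 to 776 TPM in Aβ0/0 cTEC). A list of 4 epithelial genes also summed lower in WT (3080 to 6380 TPM, against 6620 to 7720 TPM), with 2 estimates above 0 and 2 below. All 7 cTEC markers had estimates below 0. A list of 4 endothelial genes was at 17.9, 34.0 and 17.4 TPM in WT and at 12.6, 13.1 and 13.0 TPM in Aβ0/0 cTEC, and of the fibroblast genes, whose sums overlapped, *Pdgfrb* was at 4.95 to 16.0 CPM in WT and at 0.105 CPM or less in Aβ0/0 cTEC. All 6 fibroblast genes had estimates above 0, with a median log2 fold change of 1.11. The part of each was not tested.

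*Oas3* had the smallest p in cTEC, with 24.2, 24.5 and 29.9 CPM in WT and 10.0, 8.19 and 10.2 CPM in Aβ0/0. WT was above Aβ0/0 in every pair of libraries by a log2 fold change of 1.51 (SE 0.42, adjusted p = 1, edgeR), which DESeq2 but not edgeR called (1.47, adjusted p = 0.000175). *Oas2*, its neighbour on chromosome 5, was at 33.5, 63.5 and 27.9 CPM in WT, against 14.4, 0.476 and 3.36 CPM in Aβ0/0 cTEC, a log2 fold change of 2.80 (SE 0.97). The groups did not overlap, and the log2 fold change was between 2.25 and 4.47 with 1 library left out, the highest without Aβ0/0 cTEC replicate 1.

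*Gbp7* was at 76.2, 114 and 114 CPM in WT, against 65.7, 60.8 and 65.6 CPM in Aβ0/0 cTEC, a log2 fold change of 0.70 (SE 0.27). *Zbp1*, a sensor of Z-form nucleic acid, was at 119, 150 and 161 CPM in WT, against 100, 114 and 76.7 CPM in Aβ0/0. The groups did not overlap in either gene, although in *Zbp1* the lowest WT and the highest Aβ0/0 library nearly met. *Isg15* was at 364, 356 and 782 CPM in WT, against 285, 326 and 293 CPM in Aβ0/0, and its log2 fold change of 0.79 came down to 0.26 without WT replicate 3, the library at 782 CPM. *Irf7* was at 333, 410 and 340 CPM in WT and 291, 230 and 265 CPM in Aβ0/0, a log2 fold change of 0.50 (SE 0.25). *Irf1* was the exception among these, with 377, 304 and 224 CPM in WT and 413, 387 and 392 CPM in Aβ0/0 cTEC, and none of these genes passed in edgeR.

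**Figure D3:**
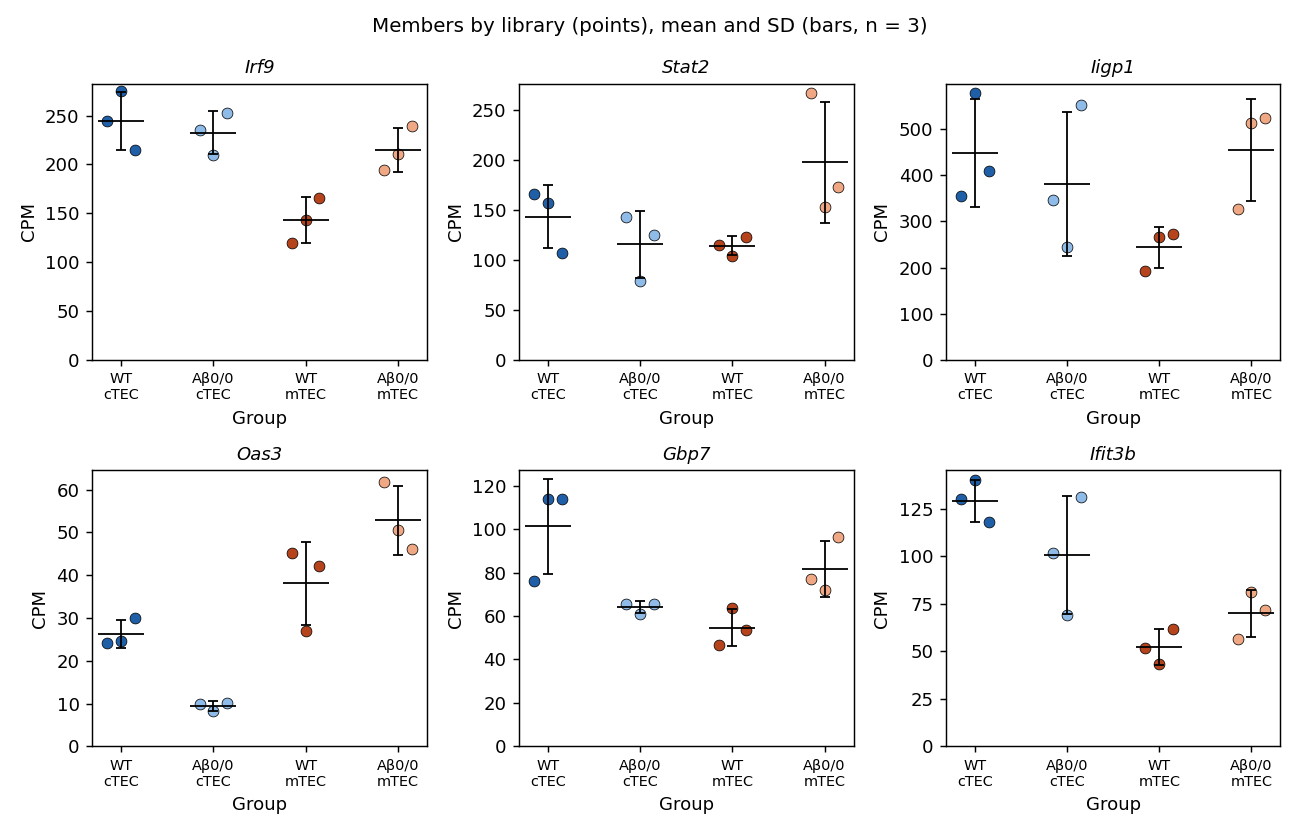
CPM (vertical axes, starting at 0) of 6 interferon-stimulated genes in the 4 groups (horizontal axes). Points are libraries, long bars are means and whiskers are SD with n = 3. *Oas3* and *Gbp7* are lower in WT than in Aβ0/0 mTEC and higher in WT than in Aβ0/0 cTEC in every library, while for *Irf9*, *Stat2* and *Iigp1* the genotypes do not overlap in mTEC and overlap in cTEC, although none of these passed the test of that difference (adjusted p = 0.658, 0.536 and 0.623, edgeR). For *Ifit3b* they overlap in both.

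Whether the genotype difference itself differed between mTEC and cTEC was tested in 1 fit of all 12 libraries. Of the 41 genes, 0 passed (edgeR's quasi-likelihood test, adjusted over 19461 genes), where 0.0103% of all genes did, and 10 had an unadjusted p under 0.05, against 6.90% of all genes. DESeq2 called 2 genes (1.97% of all genes) and limma on the rlog values 1 (2.77%). The estimate, the log2 fold change in mTEC minus that in cTEC, was below 0 for 38 of the 41 genes, where 51.7% of all genes were, with a median of -0.65, beside -0.04 over all genes tested. Leaving out any 1 library kept between 34 and 38 estimates below 0. In 29 of the 41 genes (70.7%) WT was lower in mTEC and higher in cTEC, an arrangement found in 4773 of 15124 genes tested in both (31.6%), while 3 genes had the opposite arrangement, 3 were lower in WT in both and 6 higher in both. In *Zbp1*, *Oas3* and *Gbp7* the groups did not overlap in either subset, with WT lower in mTEC and higher in cTEC, which held for 0.284% of the genes tested in both.

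The smallest p of this comparison was that of *Oas3*, which was at 45.1, 26.9 and 42.2 CPM in WT mTEC and 61.8, 50.6 and 46.1 CPM in Aβ0/0 mTEC. Its difference between subsets was -1.93 (SE 0.41, adjusted p = 0.27, edgeR). It passed with DESeq2 (-1.85, adjusted p = 0.000136) and with limma on rlog values (-1.53, adjusted p = 0.0284), and over all alternatives its adjusted p lay between 0.000136 and 0.789. *Gbp7* followed with -1.24 (adjusted p = 0.39, edgeR), which passed with DESeq2 alone (-1.15, adjusted p = 0.0165), and then *Stat2* with -1.09 (adjusted p = 0.536, edgeR), which passed under none of the alternatives.

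More of the genes passed between the subsets of WT mice. Of the 41 genes, 14 passed (34.1%; edgeR's quasi-likelihood test, adjusted over 18667 genes) against 26.8% of all genes, with 12 lower in mTEC than in cTEC, where 8.81% of all genes were lower, and 2 higher, where 18% were higher. The median log2 fold change of mTEC over cTEC was -0.47, beside 0.06 over all genes. In 18 of the 41 genes each WT mTEC library lay below each WT cTEC library and in 2 above, while 17.4% of all genes lay entirely below and 29.5% entirely above. Without WT mTEC replicate 1, 2 or 3 the number that passed was 5, 3 or 6, against 17.7%, 17.7% and 18.3% of all genes in those fits. On the rlog values limma called 8, against 19.9% of all genes. *Gbp2* and *Ifit3b* passed under all 13 alternatives tried.

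In the IFIT family 3 of the 4 genes fell. *Ifit3b* was at 130, 140 and 118 CPM in WT cTEC and at 51.7, 43.1 and 61.8 CPM in WT mTEC, *Ifit3* at 473, 525 and 413 CPM against 210, 229 and 262 CPM, and *Ifit1* at 388, 586 and 312 CPM against 173, 227 and 209 CPM. Each cTEC library was above each mTEC library, and the log2 fold changes of mTEC over cTEC were -1.28, -0.98 and -1.05, with adjusted p = 0.00427, 0.0105 and 0.0236 (edgeR). *Ifit2* did not pass, with 26.2, 28.7 and 6.93 CPM in cTEC and 21.3, 20.7 and 26.5 CPM in mTEC. *Gbp2* was at 143, 221 and 142 CPM in cTEC and at 52.0, 69.6 and 73.3 CPM in mTEC, the largest fall in the list at -1.35 (SE 0.25, adjusted p = 0.00671, edgeR).

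*Rtp4*, which is induced by type I interferon and helps receptors reach the cell surface, fell from 309, 363 and 549 CPM in WT cTEC to 122, 202 and 195 CPM in WT mTEC (-1.22, adjusted p = 0.0251, edgeR). *Isg15* fell from 364, 356 and 782 CPM to 177, 233 and 246 CPM (-1.19, adjusted p = 0.0492, edgeR, and -0.67 without WT cTEC replicate 3), and *Sp100* from 257, 300 and 210 CPM to 117, 113 and 135 CPM (-1.04, adjusted p = 0.00879, edgeR). Values in mTEC lay below those in cTEC throughout these genes, and *Isg15* was the closest to the threshold. *Eif2ak2*, the RNA-activated kinase that stops translation, *Ifi44*, *Gbp7*, *Iigp1* and *Irf9* fell by between 0.75 and 0.96 on the log2 scale. With the pool as a replicate block, *Irf9* no longer passed (adjusted p = 0.059, edgeR). Fibroblast and thymocyte genes were likewise higher in cTEC than in mTEC, in the ranges given above, and their part in these differences was not tested.

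Against this direction, *Oasl1*, which limits the translation of IRF7, rose from 12.5, 3.15 and 14.5 CPM in WT cTEC to 47.3, 70.6 and 50.0 CPM in WT mTEC (2.48, SE 0.55, adjusted p = 0.0118, edgeR). *Gbp5*, which promotes inflammasome assembly, rose from 14.4, 29.5 and 28 CPM to 60, 50.4 and 59.5 CPM (1.26, SE 0.31, adjusted p = 0.0204, edgeR). In both genes every mTEC library was above every cTEC library. Dendritic cell, macrophage and granulocyte genes were also higher in WT mTEC than in WT cTEC, as were 4 B cell genes (23.6 to 37.9 TPM in WT mTEC and 2.13 to 7.72 TPM in WT cTEC), and their part was not tested.

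In Aβ0/0 mice fewer of these genes passed between the subsets, as did fewer of all genes (5.60%, against 26.8% in WT). The test of the difference between genotypes, given above, was passed by 0 of the 41 genes. Of the 41, 3 passed (7.32%; edgeR's quasi-likelihood test, adjusted over 15687 genes) against 5.60% of all genes, 2 of them higher in mTEC (3.45% of all genes) and 1 lower (2.15%). The median log2 fold change of mTEC over cTEC was 0.15 beside 0.03 (0.01 to 0.21 with 1 library left out). Of the estimates 24 were above 0, where 51.6% of all genes were, and 17 below. In 11 genes each mTEC library lay above each cTEC library and in 2 below, while 15% of all genes lay entirely above and 13.0% below. *Oas3* rose from 10.0, 8.19 and 10.2 CPM in cTEC to 61.8, 50.6 and 46.1 CPM in mTEC (2.49, SE 0.38, adjusted p = 0.0118, edgeR). *Irf7* rose from 291, 230 and 265 CPM to 517, 569 and 545 CPM (1.06, SE 0.21, adjusted p = 0.0286, edgeR). *Irf1* fell from 413, 387 and 392 CPM to 236, 194 and 182 CPM (-0.95, SE 0.21, adjusted p = 0.0428, edgeR). The groups did not overlap in any of the 3 genes, but the counts were sensitive to the number of libraries. *Oas3* alone passed when any 1 of 5 libraries was left out and 0 of the 41 passed without Aβ0/0 mTEC replicate 1 (*Oas3* 2.32, adjusted p = 0.0513, edgeR), where 2.79% of all genes did. DESeq2 called 8 of the 41, against 16.9% of all genes, adding *Gbp5*, *Mx1*, *Oas1a*, *Usp18* and *Zbp1*, all higher in mTEC.

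**Figure D4:**
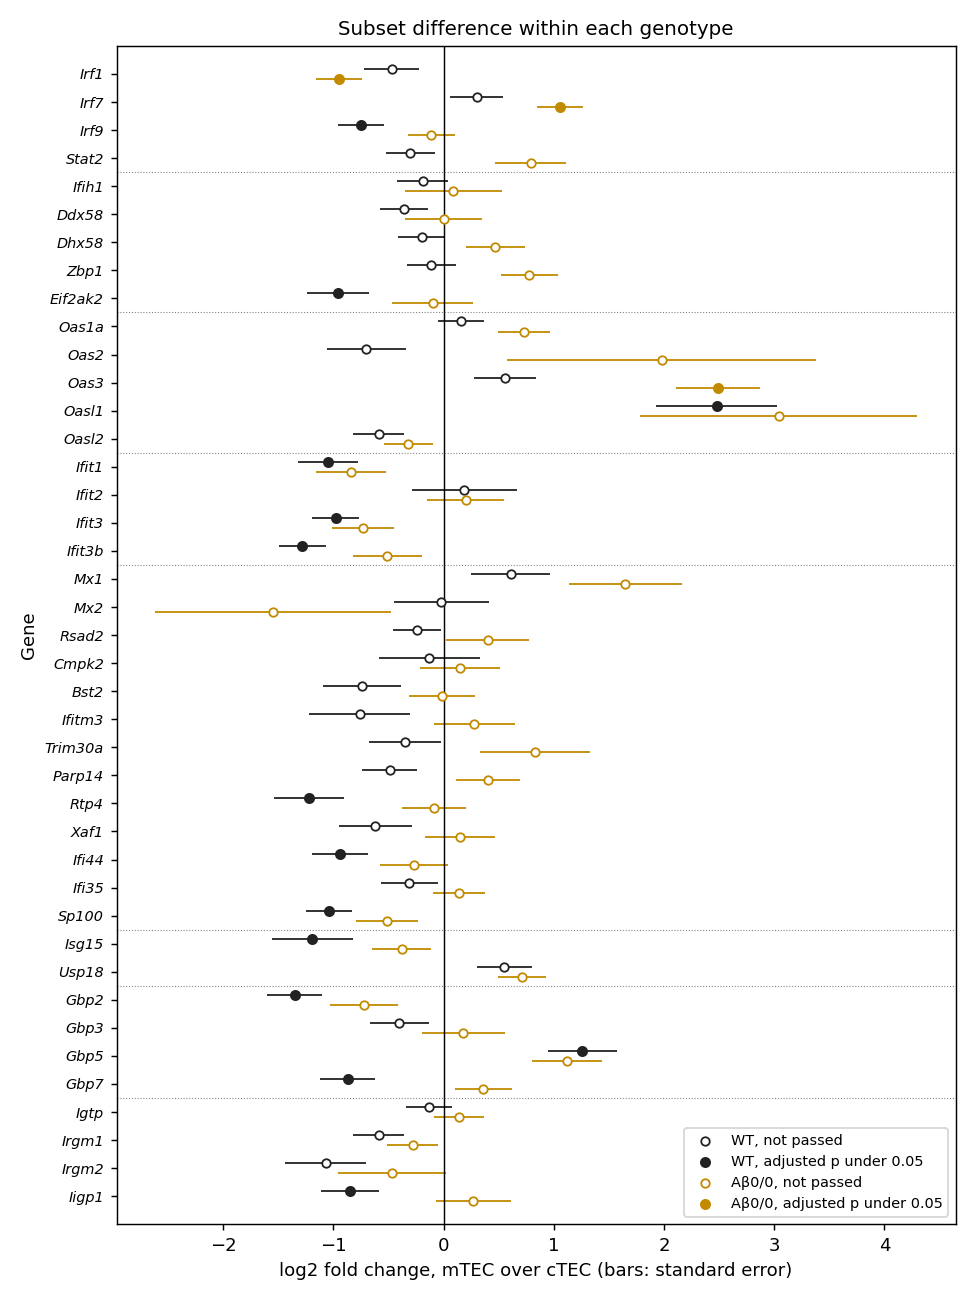
log2 fold change of mTEC over cTEC (horizontal axis, bars are standard errors) for each of the 41 genes (vertical axis), in WT and in Aβ0/0 mice. Filled points passed an adjusted p of 0.05, 14 in WT and 3 in Aβ0/0, and for most genes the WT point lies left of the Aβ0/0 point.

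Of the *Ifit* genes that fell in WT mTEC, *Ifit1* was at 337, 216 and 488 CPM in Aβ0/0 cTEC and at 160, 178 and 237 CPM in Aβ0/0 mTEC, *Ifit3* at 419, 223 and 362 CPM and at 200, 229 and 169 CPM, and *Ifit3b* at 102, 68.9 and 131 CPM and at 56.7, 81.3 and 72.0 CPM. The subsets overlapped in all 3 genes in Aβ0/0 mice. The test of the difference between genotypes passed for none of them.

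Transcripts of the interferons themselves were found mainly in mTEC libraries. Of 21 ligand genes only 5 or 6 had enough counts to be tested in comparisons that included WT mTEC. *Ifnb1*, interferon-β, was at 0.835, 0.478 and 4.11 CPM in WT mTEC, that is between 16 and 132 counts, and at 0 counts in the other 9 libraries. Set against 3 counts per library, it was at least 14.4-fold higher in WT mTEC than in WT cTEC (adjusted p = 0.0159, edgeR) and at least 15.2-fold higher than in Aβ0/0 mTEC, where the test was not passed (adjusted p = 0.0717, edgeR). WT mTEC replicate 3 carried much of both bounds, which were 5.22 and 5.53 without it (adjusted p = 0.0386 and 0.129, edgeR). *Ifnl2*, a type III interferon, was at 4.97, 2.33 and 5.41 CPM in WT mTEC, at 0, 5.09 and 0.984 CPM in Aβ0/0 mTEC and at 0.156 CPM or less in all cTEC libraries, and it rose from WT cTEC to WT mTEC (adjusted p = 0.0125, edgeR, and up to 0.0569 with 1 library left out). *Ifnl3* was at 2.80, 1.19 and 2.86 CPM in WT mTEC, at 0.83, 2.47 and 4.92 CPM in Aβ0/0 mTEC and at 0 in 5 of the 6 cTEC libraries. In Aβ0/0 mice it was at least 26.2-fold higher in mTEC (adjusted p = 0.0452, edgeR), a call that was lost with any 1 of the 6 libraries left out, and the bound was 15.8 without Aβ0/0 mTEC replicate 3. Genotypes overlapped in mTEC for both type III genes. *Ifng*, interferon-γ, was at 2.38, 1.25 and 1.68 CPM in WT mTEC and at 0.87, 0 and 0 CPM in Aβ0/0 mTEC (adjusted p = 0.6, edgeR), and it is typical of lymphocytes. Summed over all 21 ligand genes, the level was 28.2, 11.8 and 39.3 TPM in WT mTEC, 5.84, 14.9 and 15 TPM in Aβ0/0 mTEC and 6.30 TPM or less in cTEC, so that the genotypes overlapped in mTEC, while within each genotype every mTEC library lay above every cTEC library.

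**Figure D5:**
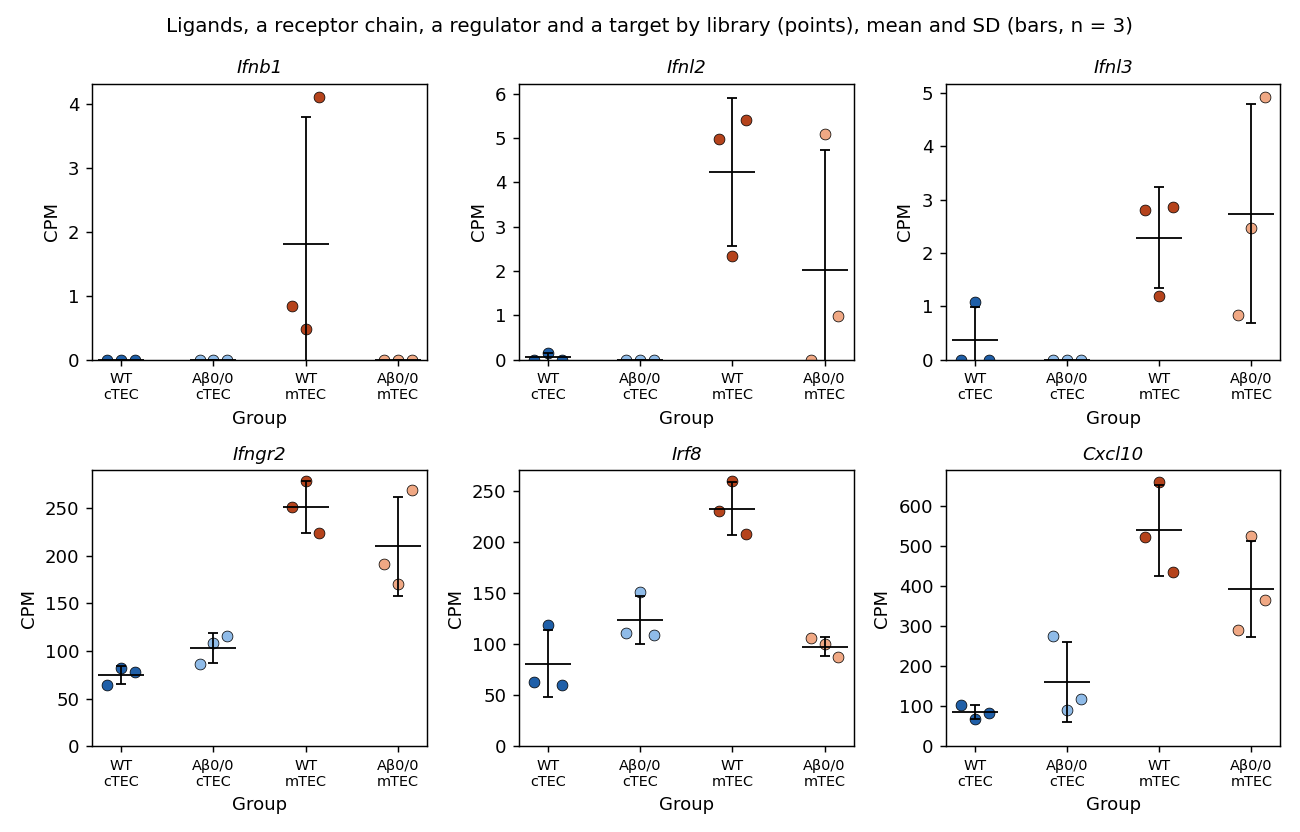
CPM (vertical axes, starting at 0) of 3 interferon ligands (*Ifnb1*, *Ifnl2*, *Ifnl3*), a receptor chain (*Ifngr2*), a regulator (*Irf8*) and a chemokine target (*Cxcl10*) in the 4 groups (horizontal axes). Points are libraries, long bars are means and whiskers are SD with n = 3, and *Ifnb1* is above 0 only in the 3 WT mTEC libraries.

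Of 9 receptor and Janus kinase genes, 0 passed in either genotype comparison (5.66% of all genes in mTEC and 0.0194% in cTEC), with 1 at an unadjusted p under 0.05 in mTEC (15.3% of all genes) and 0 in cTEC (2.16% of all genes, edgeR). Between the WT subsets 3 passed (33.3%, against 26.8% of all genes). *Ifngr2*, the signalling chain of the interferon-γ receptor, rose from 64.6, 82.6 and 78.5 CPM in cTEC to 251, 279 and 224 CPM in mTEC (1.76, adjusted p = 0.0014, edgeR), whereas *Ifnar2*, of the type I receptor, fell by 0.62 (adjusted p = 0.0479, edgeR) and *Il10rb*, which type III interferon shares with interleukin-10, fell by 0.86 on the log2 scale (adjusted p = 0.0273, edgeR). The calls of *Ifnar2* and *Il10rb* each held in only 1 of the 6 fits that left out a library. *Ifnlr1*, the chain particular to type III interferon, was at 7.89 to 16.5 CPM in the WT libraries and did not pass.

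Of 13 signal transducers and regulators, 1 passed between genotypes in mTEC (7.69%, against 5.66% of all genes), where it was higher in WT. *Irf8*, a factor of dendritic cells and macrophages that is also induced by interferon-γ, was at 231, 260 and 208 CPM in WT mTEC and at 106, 100 and 87.7 CPM in Aβ0/0 mTEC (1.26, SE 0.18, adjusted p = 0.0352, edgeR). The call held in only 1 of the 6 fits that left out a library, with adjusted p up to 0.138. The study likewise reports lower expression of this gene in mTEC without MHC class II, and describes it as a transcriptional activator of *Aire*. *Aire* was also higher in WT mTEC, as given above, and a link between *Aire* and *Irf8* was not tested. Dendritic cell and macrophage genes other than *Lyz2* were also higher in WT mTEC, as given above, and their part was not tested. Between the WT subsets 4 of the 13 passed (30.8%, against 26.8% of all genes), with *Irf5*, *Irf8* and *Socs1* higher and *Usp25* lower in mTEC, and between the Aβ0/0 subsets 2, with *Stat3* higher and *Usp25* lower in mTEC (15.4%, against 5.60% of all genes), and both of these Aβ0/0 calls were lost with any 1 library left out. In WT, *Socs1* passed in 2 of the 6 fits that left out a library (adjusted p up to 0.11, edgeR) and the other 3 genes in all 6.

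Of 13 adaptors of nucleic acid sensing, 11 were tested and 0 passed between genotypes (5.66% of all genes in mTEC and 0.0194% in cTEC). At an unadjusted p under 0.05 there was 1 in mTEC (15.3% of all genes) and 0 in cTEC (2.16% of all genes, edgeR). Between the WT subsets 3 of the 11 passed (27.3%, against 26.8% of all genes). *Tmem173*, which encodes STING, rose from 22.5, 32.8 and 34.9 CPM in WT cTEC to 192, 209 and 186 CPM in WT mTEC (2.72, SE 0.25, adjusted p = 0.000494, edgeR). Between the Aβ0/0 subsets 2 of the 11 passed (18.2%, against 5.60% of all genes), *Tmem173* (2.60, adjusted p = 0.00774, edgeR) and, at the threshold, *Trex1* (1.45, adjusted p = 0.05 after rounding, edgeR). The call of *Trex1* held in 1 of the 6 fits that left out a library. *Mb21d1*, the DNA sensor that activates STING, and *Trex1*, the nuclease that removes its DNA, rose in WT mTEC too, by 3.19 and 1.05 on the log2 scale (adjusted p = 0.0147 and 0.0343, edgeR, and up to 0.072 and 0.116 with 1 library left out).

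A further 49 interferon-stimulated genes outside the list also had most estimates below 0 in mTEC (34 of 49, median -0.27, where 49.9% of all genes were below 0) and above 0 in cTEC (34 of 47 tested, median 0.33, where 55.2% of all genes were above 0). In mTEC 2 of the 49 passed (4.08%, against 5.66% of all genes), both higher in WT. *Gbp2b*, a guanylate binding protein, was at 3.51, 4.93 and 2.05 CPM in WT mTEC, while all 3 Aβ0/0 mTEC libraries were at 0, at least 29.5-fold higher against 3 counts per library (adjusted p = 0.0352, edgeR), and *Slfn1* was at 1.25, 1.28 and 0.591 CPM and at 0 (at least 8.79-fold, adjusted p = 0.0352, edgeR). Each call held in only 1 of the 6 fits that left out a library, with adjusted p up to 0.138. Granulocyte genes, and dendritic cell and macrophage genes other than *Lyz2*, were also higher in WT mTEC, as given above, and their part was not tested. Between the WT subsets 20 of the 49 passed (40.8%, against 26.8% of all genes), 12 higher (18% of all genes) and 8 lower (8.81% of all genes) in mTEC. The higher ones included the CXCR3 ligands *Cxcl9*, *Cxcl10* and *Cxcl11*, of which *Cxcl10* rose from 103, 68.2 and 83.4 CPM in cTEC to 524, 660 and 435 CPM in mTEC (2.69, SE 0.28, adjusted p = 0.000706, edgeR). *Ifitm1*, a close relative of *Ifitm3*, rose from between 8.59 and 15.8 CPM to between 81.0 and 85.8 CPM (2.83, adjusted p = 0.000781, edgeR). The nuclease gene *Isg20* fell from 328, 358 and 326 CPM to 43.9, 57.9 and 55.0 CPM (-2.67, adjusted p = 0.000339, edgeR). In Aβ0/0 mice 9 of 46 passed (19.6%, against 5.60% of all genes), 7 higher and 2 lower in mTEC, with *Cxcl9*, *Cxcl11* and *Ifitm1* among the higher ones and *Isg20* and *Ifi27* as the lower ones. Of these, *Ifitm1* passed in all 6 fits that left out a library, *Cxcl9* in 5, *Isg20* in 4, *Ifi27* in 2 (adjusted p up to 0.0823, edgeR) and *Cxcl11* in 1 (up to 0.119).

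Within groups, the 41 genes varied least between WT mTEC libraries and most between WT cTEC libraries. Cell input also differed between the groups, as given above, and its part in this spread was not tested. The median SD of log2(CPM + 0.5) over the genes was 0.24 in WT mTEC, 0.29 in Aβ0/0 mTEC, 0.33 in Aβ0/0 cTEC and 0.36 in WT cTEC. By rank within a group, WT mTEC replicate 1 was the lowest of its group for 27 of the 41 genes, WT mTEC replicate 3 the highest for 24, WT cTEC replicate 2 the highest for 22 and Aβ0/0 cTEC replicate 2 the lowest for 25. The largest SD were those of *Oasl1* in Aβ0/0 cTEC (2.20; 13.5, 2.05 and 0.168 CPM), *Mx2* in Aβ0/0 mTEC (2.10) and *Oas2* in Aβ0/0 mTEC (2.08; 59.5, 8.40 and 3.07 CPM). For *Oas2*, *Mx2* and *Stat2* the highest Aβ0/0 mTEC value was that of replicate 1.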

How the data were processed

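RNA was measured in 12 libraries of sorted TEC, 3 per group. Per the labels, the authors trimmed reads with Trim Galore and quantified them with kallisto 0.43, with genome build mm10. The deposited estimated counts per transcript are kallisto's expected counts, and the deposited TPM values, made by the authors with kallisto, also correct for transcript length. The authors deposited rlog values, which are log2 counts made with DESeq2. Of 109282 transcripts, 107987 matched GENCODE M21 and were summed per gene and rounded, and the others held 0.4502% to 0.5116% of counts.

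Groups were compared with edgeR 4.0.16 (quasi-likelihood test, TMM, filterByExpr) in R 4.3.3, with Benjamini-Hochberg adjustment over all genes tested and a threshold of 0.05. All 41 genes passed the filter in every comparison. CPM were scaled with TMM over the 12 libraries. Alternatives were DESeq2 1.42.0, limma 3.58.1 on rlog values, other scaling and filters, a fit of all libraries, a replicate block and leaving out each library. Both subsets of one pool carry the same number, because the study sorted them together, and their deviations from the group means correlated at 0.417, -0.0341 and 0.227 in WT and 0.342, 0.174 and 0.0378 in Aβ0/0. Similar transcripts were found with BLAST 2.17.0. The fits were tested on simulated data with known changes.

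The 41 genes, the other lists and the tests were chosen with earlier results of these data known. Genes were described in full when, between genotypes, they had the smallest p among the genes without overlap of the groups, when they passed between subsets with the largest differences, when they had the highest TPM, when they had the smallest p for the difference between subsets or when they had near-identical copies, and others were named after their values were seen.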

Additional observations from a re-analysis of the deposited data

Results flagged for a closer look

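For 3 of the 41 genes, *Zbp1*, *Oas3* and *Gbp7*, each WT library lay below each Aβ0/0 library in mTEC and above each Aβ0/0 library in cTEC, so that the genotypes separated in opposite directions, as they did in 0.284% of the genes tested in both. The log2 fold change in mTEC minus that in cTEC was -0.89 for *Zbp1* (adjusted p = 0.555, edgeR, adjusted by Benjamini-Hochberg over 19461 genes), -1.93 for *Oas3* (adjusted p = 0.27, edgeR) and -1.24 for *Gbp7* (adjusted p = 0.39, edgeR). None of the 3 passed this test of the difference. *Zbp1* was at 124, 120 and 149 CPM in WT mTEC and at 154, 149 and 194 CPM in Aβ0/0 mTEC, so that the highest WT and the lowest Aβ0/0 value are the same at the digits given.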

How the results depend on the processing

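The number of the 41 genes that passed was compared across alternatives. Between genotypes in mTEC it was 4 with DESeq2 and ranged from 0 to 2 with 1 library left out, in cTEC it was 1 with DESeq2 and 0 with any library left out, and for the difference between subsets it was 2 with DESeq2, 1 with limma on rlog values and 0 with any library left out. Between the WT subsets it was 8 with limma and ranged from 3 to 18 with 1 library left out, and between the Aβ0/0 subsets it was 8 with DESeq2, 5 in the fit of all 12 libraries and ranged from 0 to 1 with 1 library left out. The remaining 53 counts were within 1.5 times of the reported count, among them 12 between the WT subsets with RLE size factors and 11 in the fit of all 12 libraries, and 385 values of medians and single genes kept their direction and, for genes, their side of the threshold. A further 29 values of single genes no longer passed, 9 newly passed and 0 reversed.

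With the replicate block, the counts were 0, 0 and 0 between genotypes in mTEC, in cTEC and for their difference, and 13 and 3 between the subsets of WT and Aβ0/0, where *Irf9* in WT was the only call lost. For genotypes the samples share only a number, with correlations of deviations of 0.45, 0.233 and 0.0944 in mTEC and 0.359, -0.158 and -0.00505 in cTEC. With 3 libraries a group and single libraries that moved the WT subset count to 3, these counts are imprecise, and genes under about 1 CPM rest on few reads. Where the share of all genes is not given above, a change in the count of calls cannot be set against that of all genes.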
